A study of Mus musculus with 44 samples.

Results

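The comparison described here is that of the colon with the small intestine in embryonic cells of the mouse gut at E13.5, and its members are 6 RNA libraries out of the 44 RNA-seq libraries of the study. They were chosen by their titles, 3 libraries named emColon and 3 named emSI. All 6 hold EPCAM+ GFP+ cells with a wild-type label, sorted from the colon or the small intestine of individual E13.5 embryos, a stage counted with a 24-h delay for the uterine transfer. Each embryo had been made by aggregating GFP+ mouse embryonic stem cells of the F1G4 line (strain G4 in the labels) with an mCherry+ morula of strain CD1/G4, whose fathers came from a colony kept by mating to C57BL/6J females, so that the embryo proper grew from the stem cells and the extraembryonic tissues from the morula. The stem cells carried EGFP under the CAG promoter at Rosa26, had been grown from single cells and were male, so both groups share 1 parental line and 1 sex. It is not stated whether 1 clone was used throughout or whether libraries with the same number come from the same embryo. In these embryos the morula, and with it the extraembryonic lineage, carried a disruption of Trp53, and the mCherry+ Trp53 KO cells of the same organs (exColon and exSI, n = 3 each) are used below only for comparison, as are the embryonic hindgut and midgut of wild-type E9.5 embryos (emHindgut and emMidgut, n = 4 each, from pooled embryos, EPCAM+ cells with GFP and low mCherry signal). The libraries are low-input poly(A) libraries with amplified cDNA that do not mark strand, and values are TPM, the share of transcripts scaled to a common total, a level per unit of transcript length.

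The gut tube is one epithelial sheet of endoderm that becomes different along its length. Cdx2 sets an intestinal fate along the whole intestine, Hox genes of the posterior paralog groups mark its caudal end, and GATA4, PDX1 and ONECUT2 mark its proximal part, where enterocytes later absorb lipid and sugar. Signals between epithelium and the mesenchyme around it (WNT, BMP, hedgehog, FGF and retinoic acid) set and refine these territories, and at E13.5 the villi are about to form, so most cells are still progenitors.

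The labels were checked first. Trp53 read 151, 226 and 245 TPM in emColon and 172, 158 and 201 TPM in emSI, and 42.5, 124 and 122 TPM in exColon and 33.4, 167 and 117 TPM in exSI, although an edited transcript can still be counted and its level does not check the knockout. EGFP read 486, 440.1 and 522 TPM in the emColon libraries and 650.2, 474 and 608 TPM in the emSI libraries, and mCherry was listed at 0 in all 6. Rhox5 and Trap1a, transcripts of extraembryonic cells, were also listed at 0 in all 6, and Cdkn2a reached 93.4 TPM in emSI library 2 against at most 10.1 TPM in the other 5. All 15 gut epithelium markers were above 1 TPM in every library, with Epcam between 762 and 1135 TPM. Cdx2, the intestinal master regulator, read 261, 209.7 and 180.3 TPM in emColon and 96.7, 259.6 and 179.8 TPM in emSI, and the ranges overlapped.

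Some libraries stood apart and have to be named before the results. The summed level of 15 mesenchyme and smooth muscle markers was 1414 TPM in emSI library 1, with 14 of the 15 above 1 TPM, against between 106 and 270.4 TPM in the other 5. In emSI library 2 the sum lay in that range (246 TPM) but 12 of the 15 markers were above 1 TPM, against 2 to 4 in the remaining libraries. Endothelial markers summed to less than 1 TPM in each library, with 5 of 7 (Cdh5, Tek, Tie1, Emcn and Sox7) listed at 0 throughout, and blood markers to at most 6.47 TPM, with 9 of 11, globins included, listed at 0 throughout. Depth went with the organ, since the deposited coverage corresponds to 5.59 to 7.81 gigabases of aligned sequence in emColon and 10.1 to 11.6 gigabases in emSI, and 10382 to 11651 against 11899 to 12439 gene identifiers were above 1 TPM. In the Trp53 KO libraries depth did not go with the organ (5.78 to 6.87 gigabases in exColon, 4.91 to 8.70 in exSI). Libraries of the same group correlated at r = 0.896 to 0.923 in emColon and 0.937 to 0.941 in emSI (Pearson, log2(TPM + 1), all gene identifiers), and emColon library 2 was the least like the others. It was also the only embryonic library in which genes above 20 TPM in each of the other 11 E13.5 libraries were listed at 0 (3 of 3172 genes). Each library holds the bulk RNA of a small number of sorted cells, so fewer cells of a type and less RNA per cell cannot be told apart. The part of such small samples of cells in a listed 0, or in a value seen in a single library, was not tested.

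**Figure D1:**
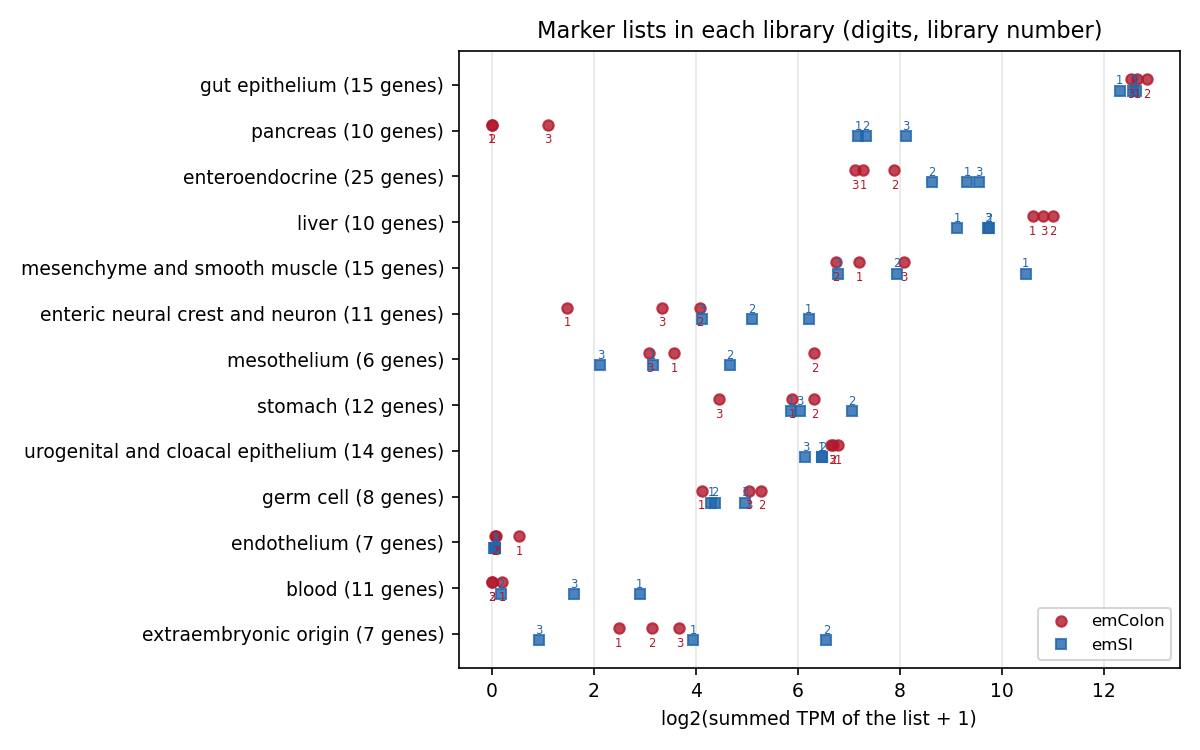
Summed TPM of each marker list on a log2(TPM + 1) axis, for the 3 emColon libraries (red circles) and the 3 emSI libraries (blue squares), with the library number beside each point and the number of genes in each list on the left. The gut epithelium list lies together for all 6 libraries, the pancreas list separates the organs, and emSI library 1 stands apart for mesenchyme and smooth muscle.

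A small number of genes passed the test between colon and small intestine, and with 3 libraries a group even many large differences would not pass. Of 11836 gene identifiers above 1 TPM in at least 3 of the 6 libraries, 26 (0.220%) were called higher in emColon and 28 (0.237%) lower, at an adjusted p under 0.05 in limma and an absolute difference above 1 on the log2(TPM + 1) scale. The 26 included posterior Hox genes, Ly6a and abundant transcripts such as Spink1, Apoe, Afp, Clu, Trf and S100a10. The 28 included Id3, Sfrp5, Gata4, Fabp2, Nepn, Clps, Cpa1, Ctrb1 and Pnliprp1. In all 54 (0.456%) the values of the 2 groups did not overlap, which holds for 1888 of the 11836 identifiers (16.0%), and 1235 identifiers had an unadjusted p under 0.05.

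Much of the contrast was between presence and a listed 0. Of the 28 genes lower in emColon 17 were listed at 0 in all 3 emColon libraries, and of the 26 higher genes 7 were listed at 0 in all 3 emSI libraries. Differences of such genes are differences of log2(TPM + 1) and not folds. Of all tested identifiers 46 were above 1 TPM in emColon only and 191 in emSI only, and the level filter itself fixes the direction of these. Over all tested identifiers the median difference was -0.15, and non-overlap was more frequent towards emSI (10.2% of tested identifiers) than towards emColon (5.71%), the direction in which depth also ran. Leaving out emSI library 1, 2 or 3 left 9, 11 and 22 called genes, of which 9, 11 and 19 were among the 54. In each of these 3 fits only 34 of the 54 could be tested, since a gene at 0 in emColon then lies above 1 TPM in only 2 libraries. Leaving out emColon library 1, 2 or 3 left 27, 33 and 28 called genes, of which 20, 29 and 20 were among the 54, and without emSI libraries 1 and 2 together 10 were called, 7 of them among the 54.

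**Figure D2:**
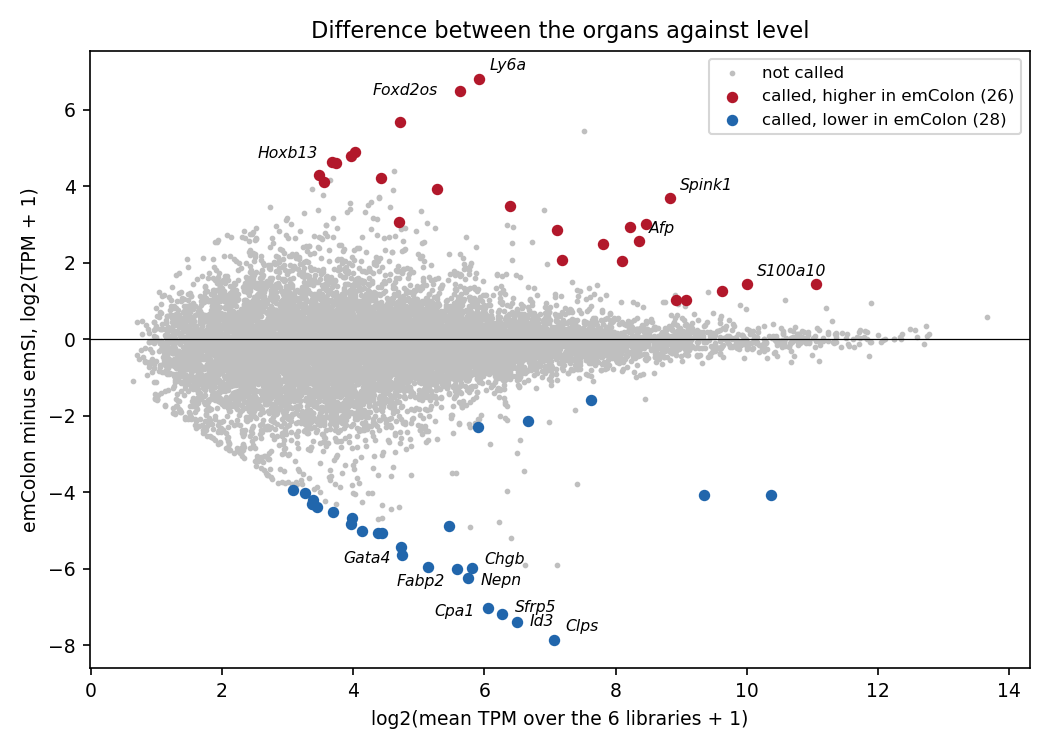
Difference between emColon and emSI on the log2(TPM + 1) scale (y axis) against the mean level of each of the 11836 tested gene identifiers (x axis), with the 26 identifiers called higher in emColon in red, the 28 called lower in blue and the others in grey. The called genes lie at the upper and lower edges, and S100a10 and Spink1 are called at high levels.

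All called Hox genes were higher in the colon. Of 16 Hox genes of paralog groups 9 to 13, 5 were above 1 TPM in enough libraries to be tested, and 3 of these were called, higher in emColon (0.220% over all tested identifiers). All 5 were above 1 TPM in emColon only, so that the filter fixed their direction. Hoxb13 (chr11:96194316-96197447 in mm10, as are the other positions given), the most caudal gene of its cluster, read 24.0, 22.4 and 24.7 TPM in emColon and was listed at 0 in all 3 emSI libraries (4.63 ± 0.68 (SE) on the log2(TPM + 1) scale, adjusted p = 0.0194). The 3 colon values lie close together. Hoxa10 (chr6:52231197-52240854) read 14.5, 40.2 and 33.4 TPM in emColon and 0 in all 3 emSI libraries (adjusted p = 0.0240). Hoxb9 (chr11:96271457-96276595) read 20.4, 24.0 and 47.9 TPM and 0 in all 3 (adjusted p = 0.0193). With any of the emSI libraries left out these 3 genes were no longer called (adjusted p between 0.0860 and 0.135), and without an emColon library they were below the level filter. Hoxa9 followed the same split without passing the test, with 5.67, 43.0 and 20.8 TPM in emColon and 0, 0.106 and 0 TPM in emSI (adjusted p = 0.0733), and so did Hoxa13 at lower level (2.26, 5.42 and 1.32 TPM and 0, 0.295 and 0 TPM, adjusted p = 0.411).

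The other posterior Hox genes were low or absent. Hoxc11, Hoxc12 and Hoxc13 were listed at 0 in all 6 libraries, Hoxc9 and Hoxc10 stayed below 1 TPM in each, and Hoxd10, Hoxd11, Hoxd12 and Hoxd13 were each above 1 TPM in a single emColon library (9.43, 3.62, 4.94 and 7.33 TPM) and at 0 in every emSI library. The 5 tested genes thus all belong to the Hoxa and Hoxb clusters. Hoxa11os, a transcript antisense to Hoxa11, read 47.3, 47.5 and 56.5 TPM in emColon and 0 in all 3 emSI libraries (5.68 ± 0.66 (SE), adjusted p = 0.00644). Hoxa11 itself was listed at 0, 0 and 4.13 TPM in emColon. The 2 genes overlap on chromosome 6 (chr6:52244393-52249799 and chr6:52242106-52245810) and the libraries do not mark strand, so reads from their shared part cannot be told apart.

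Among the 23 genes of paralog groups 1 to 8, which mark more anterior levels, 10 were tested, none was called and the median difference was 0.97. Hoxb7 was the highest in the colon with 26.6, 51.9 and 17.0 TPM against 14.2, 0 and 0 TPM in emSI (adjusted p = 0.257). Hoxd4 read 28.3, 6.06 and 26.5 TPM against 2.06, 0.390 and 3.75 TPM (adjusted p = 0.280). Hoxa5, by contrast, read 2.57, 8.14 and 2.90 TPM in emColon and 35.8, 6.98 and 3.71 TPM in emSI, and the groups overlapped. The emSI values of Hoxb7, Hoxb6 and Hoxa7 above 1 TPM all came from emSI library 1, the library with the mesenchyme transcripts, whose part in these values was not tested.

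**Figure D3:**
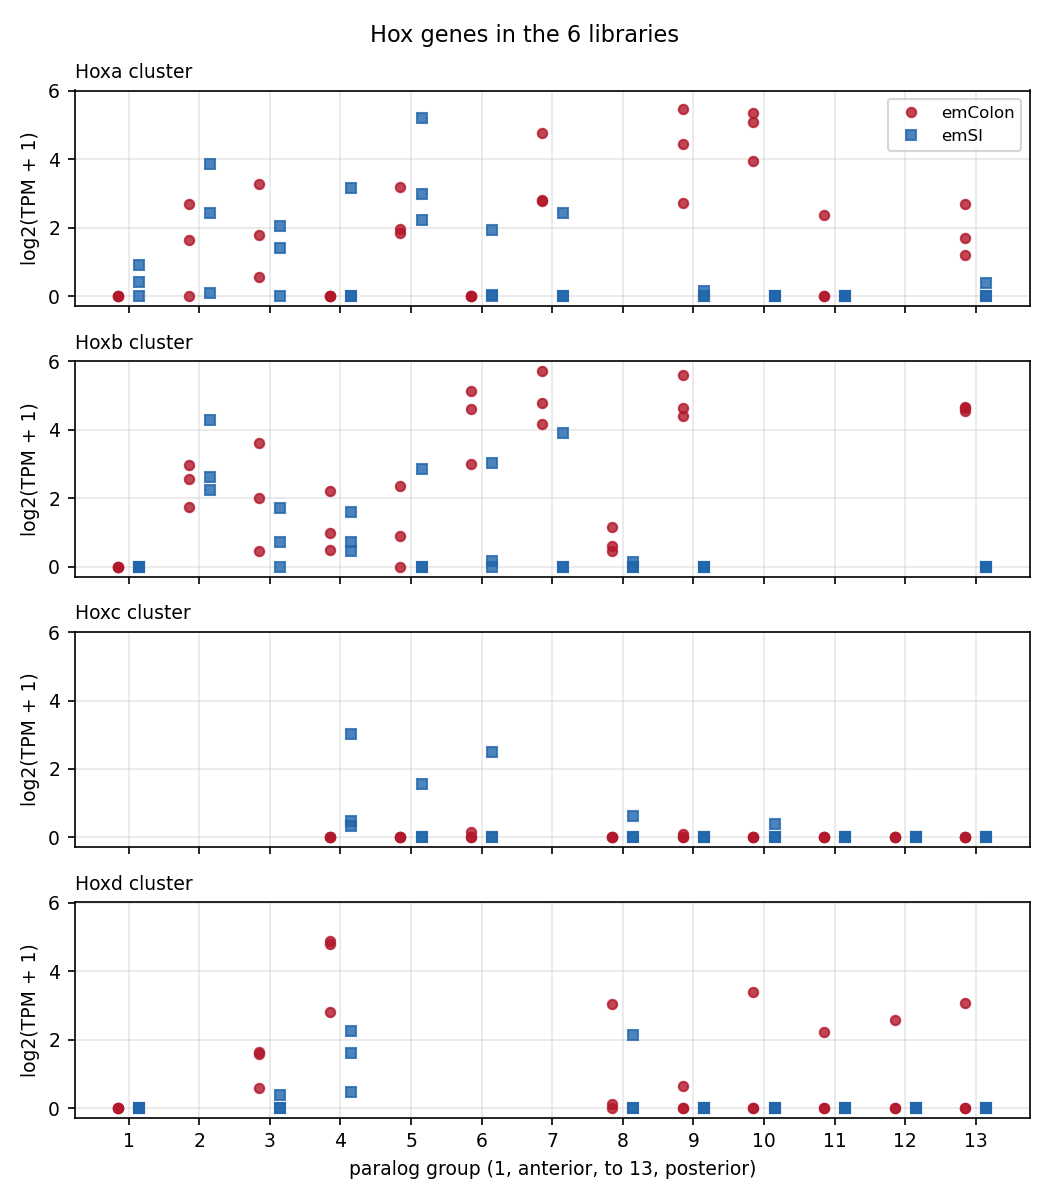
Level of each Hox gene in each library (y axis, log2(TPM + 1)) by cluster (panels) and paralog group (x axis), with emColon as red circles and emSI as blue squares. Most genes of groups 9 to 13 in the Hoxa and Hoxb clusters are above 0 in emColon, all of them are at or near 0 in emSI, and the Hoxc cluster is at or near 0 in emColon.

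Of 39 intestinal transcription factors 32 were tested, 1 was called higher and 1 lower in emColon (0.220% and 0.237% over all tested identifiers), with a median difference of -0.04. Gata4 (chr14:63198922-63271692), the factor that separates jejunal from ileal and colonic fate, was listed at 0 in all 3 emColon libraries and read 29.9, 68.2 and 56.7 TPM in emSI (-5.64 ± 0.70 (SE), adjusted p = 0.00881). It remained called without each of the emColon libraries and was below the level filter without an emSI library.

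Several other proximal factors lay on the side of Gata4 without passing the test. Gata4, Pdx1 and Meis2 were above 1 TPM in emSI only, so that the filter fixed their direction. Pdx1, the duodenal and pancreatic regulator, was listed at 0 in all 3 emColon libraries and read 18.3, 6.86 and 20.2 TPM in emSI (adjusted p = 0.0601). Onecut2 read 0.0312, 0.687 and 1.71 TPM in emColon and 18.4, 36.8 and 15.3 TPM in emSI (adjusted p = 0.0695). Hnf4g, an enterocyte nuclear receptor, read 4.49, 0.472 and 7.65 TPM and 22.7, 24.7 and 16.3 TPM (adjusted p = 0.307). In none of these did the groups overlap. Gata5 (8.89, 1.08 and 0.598 TPM and 10.0, 24.1 and 19.0 TPM) and Meis2 (0.377, 0 and 0.855 TPM and 64.9, 17.4 and 8.63 TPM) were also separated, the latter with its highest value in emSI library 1. The factors shared by the whole intestinal epithelium were among those with overlapping ranges, Gata6 (23.7, 23.9 and 17.8 TPM and 19.4, 14.1 and 15.7 TPM), Klf5 (115, 113 and 57.7 TPM and 71.9, 89.3 and 74.4 TPM) and Hnf4a (56.8, 31.4 and 9.36 TPM and 35.9, 57.4 and 30.6 TPM).

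The named genes of both organs held large differences of several kinds. Ly6a (chr15:74994877-74998031), which encodes the surface protein SCA-1, had the largest positive difference, with 183, 89.1 and 84.8 TPM in emColon and 0 in all 3 emSI libraries (6.81 ± 0.64 (SE), adjusted p = 0.00192). It remained called without each emSI library and was below the level filter without an emColon library. Foxd2os (chr4:114909257-114921967), a non-coding gene beside Foxd2, read 111, 48.1 and 133 TPM in emColon and 0, 0 and 0.0190 TPM in emSI (adjusted p = 0.00309), and Foxd2 itself read 1.58, 16.0 and 10.5 TPM and 0, 0.208 and 0 TPM (adjusted p = 0.236).

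Spink1, Apoe, Serpinb1a and Anxa3 were abundant among the named colon-high genes. Spink1, a trypsin inhibitor, read 808, 815 and 878 TPM in emColon and 52.1, 39.2 and 125 TPM in emSI, a ratio of means of 11.6 (3.69 ± 0.36 (SE), adjusted p = 0.00213). Apoe, an apolipoprotein, read 329.8, 522 and 729.8 TPM and 35.2, 87.7 and 86.4 TPM, a ratio of 7.55 (adjusted p = 0.0128). Serpinb1a, an inhibitor of neutrophil proteases, read 257, 272 and 195 TPM and 41.5, 30.7 and 25.6 TPM, a ratio of 7.40 (adjusted p = 0.00295). Spink1 and Serpinb1a kept their call without each single library and without emSI libraries 1 and 2 together. Apoe lost it without emColon library 3 (adjusted p = 0.0502), without emSI libraries 1 and 2 together (adjusted p = 0.132) and without the variance trend (adjusted p = 0.104). Anxa3, an annexin, read 203, 147 and 105 TPM and 13.6, 26.3 and 4.57 TPM (adjusted p = 0.0313) and lost its call when any 1 emColon library or emSI library 1 was left out (adjusted p up to 0.133).

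Afp and Trf, genes of fetal liver and yolk sac as well as of early gut endoderm, were called higher in emColon. They were the 2 called members among the 7 tested of a list of 10 liver markers (0.220% over all tested identifiers). Afp read 517, 465 and 661 TPM in emColon and 71.8, 180.2 and 56.7 TPM in emSI, a ratio of means of 5.32 (adjusted p = 0.0194). Trf read 312, 718 and 305 TPM and 73.7, 114 and 111 TPM, a ratio of 4.47 (adjusted p = 0.0373). Afp lost its call without emColon library 1 or 3 or emSI library 1 (adjusted p up to 0.118), and Trf when any 1 library other than emColon library 2 was left out (adjusted p up to 0.156). The list as a whole summed to between 1556 and 2051 TPM in emColon and between 558 and 859 TPM in emSI. Alb, the defining hepatocyte transcript, was listed at 0 in 5 of the 6 libraries and at 2.02 TPM in emSI library 3, Ahsg was at 0 in all 6, and Ttr overlapped between the groups (185, 344 and 306 TPM and 217, 294 and 368 TPM). Serpina1a and Serpina1b, near-identical genes whose reads can be split between copies, did not overlap between the groups and were not called (210.4, 209 and 312 TPM in emColon and 107, 148 and 164 TPM in emSI for the former, 323, 313 and 194 TPM and 80.8, 116 and 129 TPM for the latter, adjusted p = 0.296 and 0.0860).

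The other named colon-high genes were less abundant. Ppp2r2b, a regulatory subunit of protein phosphatase 2A, read 72.0, 43.5 and 98.7 TPM in emColon and 3.99, 0.922 and 8.63 TPM in emSI (adjusted p = 0.0469). Gna14, a G-protein alpha subunit, read 31.6, 17.8 and 14.4 TPM and 0.817, 0 and 0 TPM (adjusted p = 0.0494). Tnni1, the slow skeletal troponin I, read 45.0, 57.8 and 34.2 TPM and 4.98, 3.42 and 4.98 TPM (adjusted p = 0.0487). Sstr5, a somatostatin receptor, and G6pc2, a glucose-6-phosphatase subunit best known from islets, were at 0 in all 3 emSI libraries and read 22.6, 15.8 and 35.7 and 27.9, 22.7 and 10.4 TPM in emColon (adjusted p = 0.0253 and 0.0392). Each of these 5 lost its call without at least 3 of the 6 libraries, with adjusted p up to 0.156 for Ppp2r2b, 0.281 for Gna14, 0.242 for Tnni1, 0.158 for Sstr5 and 0.243 for G6pc2.

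Called genes of smaller difference were mostly abundant, and they are named here after their values were seen. S100a10, an annexin partner, read 1601, 1396 and 1498 TPM in emColon and 604, 552 and 498 TPM in emSI, a ratio of means of 2.72 (adjusted p = 0.00192), with little spread inside each group. Clu, a secreted chaperone, read 196, 524 and 421 TPM and 56.8, 40.3 and 102 TPM, a ratio of 5.72 (adjusted p = 0.0392). Serpine2, a protease inhibitor, read 215, 272 and 217 TPM and 54.7, 66.5 and 44.0 TPM, a ratio of 4.26 (adjusted p = 0.00980). The near-identical Bex1 and Bex2 and S100a11 had ratios of 2.64, 2.39 and 2.04. Clu lost its call without emColon library 2 or 3 or emSI library 1 or 2 (adjusted p up to 0.183) and with all 12 E13.5 libraries in a single fit (adjusted p = 0.0578), and Bex1 without emColon library 1 or emSI library 1 or 2 (adjusted p up to 0.0761). S100a10 kept it without each single library and lost it without the variance trend (adjusted p = 0.149). On the small intestine side Oat, an ornithine aminotransferase, Ndrg1 and the iron exporter Slc40a1 were detected in the colon as well, with ratios towards emSI of 3.02, 4.31 and 4.87, while Mxd3, Acot7, Tm4sf5, A1cf, P2rx1 and Resp18 were listed at 0 in all 3 emColon libraries.

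**Figure D4:**
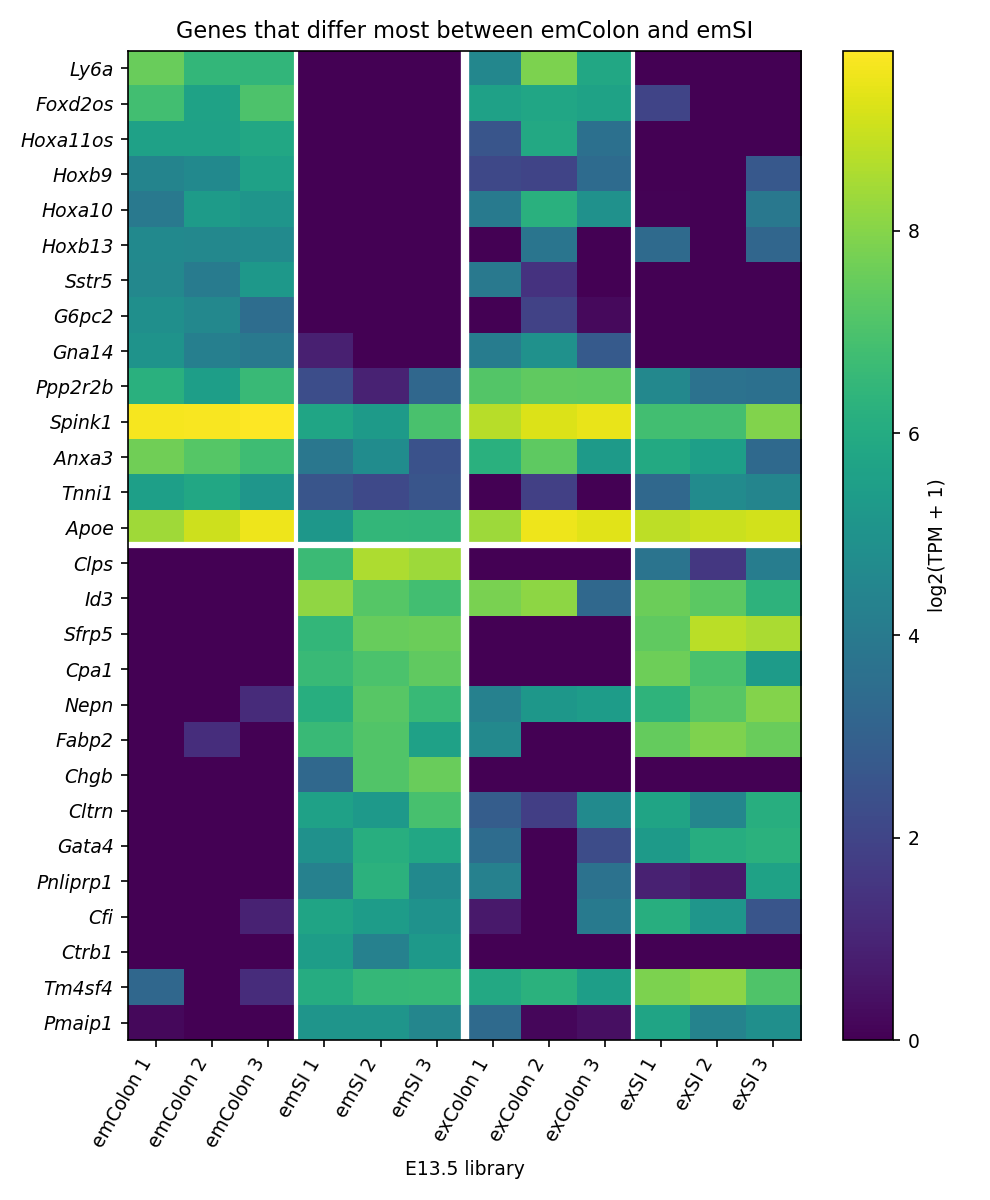
Level (colour, log2(TPM + 1)) of 14 named genes among those with the largest positive and 14 among those with the largest negative difference of emColon against emSI, in the 12 E13.5 libraries, with the columns emColon, emSI, exColon and exSI from left to right. The 2 left blocks are separated by the choice of the genes, and the 2 right blocks played no part in that choice. In the right blocks Id3, Hoxb13, Apoe, Tnni1, Ctrb1 and Chgb are among the genes that lack the split or turn it.

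Among the named genes Clps, Cpa1, Ctrb1 and Pnliprp1, which encode secreted digestive proteins and form no list of their own, were listed at 0 in the colon. Clps (chr17:28558149-28560766), the lipase cofactor, was listed at 0 in all 3 emColon libraries and read 101, 377 and 321 TPM in emSI, the largest negative difference (-7.86 ± 0.65 (SE), adjusted p = 0.00126). Cpa1 (chr6:30639218-30645363), carboxypeptidase A1 and a marker of pancreatic progenitors, was at 0 in all 3 emColon libraries and read 97.9, 128 and 168 TPM in emSI (adjusted p = 0.00126). Ctrb1, a chymotrypsinogen, read 43.0, 18.6 and 37.8 TPM in emSI and Pnliprp1, a lipase-related protein, 18.6, 76.3 and 23.7 TPM, each against 0 in all 3 emColon libraries (adjusted p = 0.0168 and 0.0252). Clps and Cpa1 stayed called without each emColon library, while without emColon library 1 the adjusted p was 0.0504 for Ctrb1 and 0.0763 for Pnliprp1, and without emColon library 3 it was 0.0683 for Pnliprp1. Without an emSI library Clps, Cpa1, Ctrb1 and Pnliprp1 were below the level filter and could not be tested. The brush border peptidases Dpp4 and Anpep were detected in both organs without a call, Dpp4 at 62.5, 49.1 and 35.7 TPM in emColon and 36.0, 38.2 and 70.6 TPM in emSI and Anpep at 11.9, 8.02 and 3.49 TPM and 13.4, 26.3 and 16.5 TPM (adjusted p = 0.977 and 0.568). Enpep, above 1 TPM in emSI only, and Mep1a were not called either (differences -3.14 and 0.63, adjusted p = 0.137 and 0.850). Mep1b was listed at 0 in all 6 libraries.

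The pancreas marker list, which holds Cpa1, was also higher in emSI. Its 10 members summed to at most 1.15 TPM in emColon and to 145, 160.5 and 278 TPM in emSI. Cpa1 made up most of each emSI sum, so the sums largely repeat its values. Of the 3 tested members 2 were called lower in emColon, Cpa1 among them (0.237% over all tested identifiers), and these 2 were above 1 TPM in emSI only, so that the filter fixed their direction. Ptf1a, the regulator of acinar fate, read 11.2, 0 and 5.20 TPM in emSI and 0 in emColon, and Rbpjl, its partner, read 7.07, 2.87 and 3.95 TPM and 0, 0 and 1.15 TPM. Ins1, Ins2, Cel and Bhlha15 were listed at 0 in all 6 libraries. Whether cells of the pancreatic buds, which lie beside the proximal intestine at this stage, were among the sorted cells was not tested.

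Of 32 enterocyte genes of absorption and lipid handling 20 were tested and 1, Fabp2, was called, lower in emColon (0.237% over all tested identifiers). The fitted difference was positive for 7 and negative for 13, with a median of -0.65, and the sums of the list overlapped, at 948 to 1358 TPM in emColon and 832 to 1402 TPM in emSI. For 6 of the 20 each emColon value lay below each emSI value (10.2% over all tested identifiers), and 1 of these, Enpep, was above 1 TPM in emSI only. Fabp2 (chr3:122895072-122899506), the intestinal fatty acid binding protein, read 0, 1.40 and 0 TPM in emColon and 96.8, 138 and 46.9 TPM in emSI (-6.01 ± 0.72 (SE), adjusted p = 0.00719). Fabp1 read 0, 27.3 and 0 TPM and 62.3, 156 and 77.3 TPM (adjusted p = 0.137). Colon values were low or 0 except for Fabp1 in emColon library 2, and Fabp2 lost its call without emSI library 1 or 2 (adjusted p up to 0.0854). Apoa1, an apolipoprotein (637, 608 and 1099 TPM and 412, 754 and 540.5 TPM), overlapped between the organs. The brush border enzyme Lct was listed at 0 in all 6 libraries.

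Lgals2 and Plac8, chosen after their values were seen because they were the most abundant of the 28 genes, were lower in emColon. Lgals2, a galectin (chr15:78850860-78855529), read 318, 87.5 and 108 TPM in emColon and 2367, 2735 and 2279 TPM in emSI, a ratio of means of 14.4 towards emSI (adjusted p = 0.00192). Plac8 read 176, 83.0 and 22.0 TPM and 1248, 1473 and 896 TPM, a ratio of 12.9 (adjusted p = 0.0168). Both were thus also detected in the colon.

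The remaining named small-intestine-high genes have varied roles. Nepn (chr10:52388972-52404625), a small leucine-rich proteoglycan known as a midgut endoderm marker, read 0, 0 and 1.29 TPM in emColon and 68.6, 151 and 95.0 TPM in emSI (-6.25 ± 0.67 (SE), adjusted p = 0.00340). Cltrn, collectrin, a partner of amino acid transporters, was at 0 in all 3 emColon libraries and read 47.8, 38.3 and 120.5 TPM in emSI (adjusted p = 0.00802). Tm4sf4, a tetraspanin-like protein, read 8.50, 0 and 1.39 TPM and 66.3, 89.7 and 92.3 TPM (adjusted p = 0.0348). Cfi, complement factor I, read 0, 0 and 0.898 TPM and 52.1, 40.8 and 30.8 TPM (adjusted p = 0.0159), and Pmaip1, a BH3-only protein and p53 target, 0.162, 0 and 0 TPM and 33.1, 33.5 and 21.2 TPM (adjusted p = 0.0168). Cltrn and Cfi stayed called without each emColon library, and Pmaip1 lost its call without emColon library 1 or 3 (adjusted p up to 0.0504). Without an emSI library Cltrn, Cfi and Pmaip1 were below the level filter and could not be tested. Nepn was lost without emSI library 2 (adjusted p = 0.0713) and Tm4sf4 when emColon library 3 or any 1 emSI library was left out (adjusted p up to 0.251).

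The promoters of 8 called genes, chosen after their values were seen, are shown with every start that the table gives for them, because these genes separate the organs in opposite directions, and 3 short motifs were marked in them. The letters are AGATAA, read by GATA factors, TTTATNG, read by CDX and posterior HOX factors, and GTTAAT, read by HNF1 factors, each searched on both strands and set in capitals. The sequences run 5′ to 3′ along the gene's strand, from 250 bases before to 50 after the start in RefSeq (GRCm38.p6, the mm10 assembly).
Hoxa10, chr6:52240805-52241104, minus strand: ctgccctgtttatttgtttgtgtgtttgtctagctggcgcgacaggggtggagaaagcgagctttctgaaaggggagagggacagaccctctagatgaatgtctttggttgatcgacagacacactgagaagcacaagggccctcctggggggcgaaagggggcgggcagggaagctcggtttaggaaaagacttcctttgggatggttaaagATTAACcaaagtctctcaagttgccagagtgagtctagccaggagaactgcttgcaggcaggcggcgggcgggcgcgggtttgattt
Hoxa10, chr6:52234890-52235189, minus strand: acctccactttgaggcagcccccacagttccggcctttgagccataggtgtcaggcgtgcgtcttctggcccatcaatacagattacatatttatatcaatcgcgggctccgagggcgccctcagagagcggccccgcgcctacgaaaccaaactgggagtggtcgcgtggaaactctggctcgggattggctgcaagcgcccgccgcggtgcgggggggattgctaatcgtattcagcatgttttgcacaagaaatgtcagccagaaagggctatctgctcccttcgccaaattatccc
Afp, chr5:90490464-90490763, plus strand: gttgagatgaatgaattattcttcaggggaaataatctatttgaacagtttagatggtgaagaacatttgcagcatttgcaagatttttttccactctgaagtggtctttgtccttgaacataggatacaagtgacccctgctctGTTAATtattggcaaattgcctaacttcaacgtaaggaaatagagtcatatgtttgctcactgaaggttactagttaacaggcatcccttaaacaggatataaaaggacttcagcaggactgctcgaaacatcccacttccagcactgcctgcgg
Sfrp5, chr19:42202203-42202502, minus strand: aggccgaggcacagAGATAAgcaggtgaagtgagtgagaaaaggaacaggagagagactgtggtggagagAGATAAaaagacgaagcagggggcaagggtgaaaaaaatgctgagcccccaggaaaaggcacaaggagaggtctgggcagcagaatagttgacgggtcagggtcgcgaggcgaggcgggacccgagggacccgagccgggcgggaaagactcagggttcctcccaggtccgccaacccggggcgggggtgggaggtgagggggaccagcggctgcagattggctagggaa
Cpa1, chr6:30638968-30639267, plus strand: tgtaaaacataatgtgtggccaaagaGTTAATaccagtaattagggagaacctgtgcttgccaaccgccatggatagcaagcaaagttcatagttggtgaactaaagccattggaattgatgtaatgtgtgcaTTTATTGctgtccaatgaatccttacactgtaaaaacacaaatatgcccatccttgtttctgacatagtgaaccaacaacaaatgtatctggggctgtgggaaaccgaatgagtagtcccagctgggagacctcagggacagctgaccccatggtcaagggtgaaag
Fabp2, chr3:122894822-122895121, plus strand: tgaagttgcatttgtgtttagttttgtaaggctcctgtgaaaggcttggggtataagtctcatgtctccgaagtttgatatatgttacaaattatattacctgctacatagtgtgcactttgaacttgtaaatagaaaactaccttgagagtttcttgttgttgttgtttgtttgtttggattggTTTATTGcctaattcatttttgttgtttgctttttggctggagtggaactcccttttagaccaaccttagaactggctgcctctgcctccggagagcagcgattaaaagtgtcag
Nepn, chr10:52391358-52391657, plus strand: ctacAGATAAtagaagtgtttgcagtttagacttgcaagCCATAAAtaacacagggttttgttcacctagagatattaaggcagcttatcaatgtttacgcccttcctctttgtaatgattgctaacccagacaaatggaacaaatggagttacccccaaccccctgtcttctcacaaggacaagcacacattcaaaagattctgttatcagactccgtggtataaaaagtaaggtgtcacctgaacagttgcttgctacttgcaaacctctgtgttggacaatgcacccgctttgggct
Lgals2, chr15:78855480-78855779, minus strand: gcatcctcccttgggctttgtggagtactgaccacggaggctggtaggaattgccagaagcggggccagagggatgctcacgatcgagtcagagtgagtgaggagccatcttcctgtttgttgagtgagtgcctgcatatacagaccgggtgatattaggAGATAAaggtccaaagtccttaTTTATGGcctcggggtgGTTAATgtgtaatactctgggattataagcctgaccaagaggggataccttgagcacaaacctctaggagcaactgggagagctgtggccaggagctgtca
Id3, chr4:136143572-136143871, plus strand: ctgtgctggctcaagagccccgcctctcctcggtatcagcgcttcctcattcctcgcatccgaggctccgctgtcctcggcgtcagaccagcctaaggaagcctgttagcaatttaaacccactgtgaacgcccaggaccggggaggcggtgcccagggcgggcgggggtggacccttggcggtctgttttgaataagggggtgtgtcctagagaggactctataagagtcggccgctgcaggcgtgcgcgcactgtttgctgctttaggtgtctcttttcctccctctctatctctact
Hoxa10 and Afp are colon-high and the other 6 small-intestine-high, and the second start of Hoxa10 and the promoter of Id3 hold none of the 3 motifs. Of the genes lower in emColon 21 of 28 had a promoter in the table (24 promoters), and of those higher 12 of 26 (17 promoters). AGATAA was in 20.8% of the promoters of the lower genes, in 5.88% of those of the higher genes and in 11.2% of all 32851 promoters. TTTATNG was in 29.2%, 11.8% and 10.9%, and GTTAAT in 25.0%, 17.6% and 7.10%. None of the TTTATNG matches in promoters of called genes touched a TATA box (TATAAA), which 33.3% of the promoters with a match in the whole table did. With 24 and 17 promoters these shares rest on few sequences, and a match is a description of letters only.

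Of 25 enteroendocrine genes 8 were tested and 1, Chgb, was called, lower in emColon (0.237% over all tested identifiers). Of the 8, 5 were above 1 TPM in emSI only, Chgb, Neurod1, Pax6 and Isl1 among them, so that the filter fixed their direction. Chgb, chromogranin B of secretory granules, was listed at 0 in all 3 emColon libraries and read 8.89, 138 and 184 TPM in emSI (-5.99 ± 1.07 (SE), adjusted p = 0.0497), a call that was lost when any emColon library was left out (adjusted p = 0.119 to 0.127). Pax6 (8.80, 8.74 and 15.3 TPM) and Neurod1 (7.17, 2.62 and 7.80 TPM), regulators of endocrine fate, were at 0 in all 3 emColon libraries (adjusted p = 0.0622 and 0.186). Neurog3, the endocrine inducer, was at 0 in emColon and read 0, 71.1 and 11.5 TPM in emSI. Rfx6, another endocrine factor, read 12.2, 0.266 and 11.1 TPM in emColon and 23.8, 26.6 and 29.9 TPM in emSI (adjusted p = 0.419). The pancreas marker sums given above, which rest largely on Cpa1, were also higher in the same 3 emSI libraries, and Pax6, Neurod1, Neurog3, Chgb and Gcg are genes of pancreatic endocrine cells too. The part of such cells in these values was not tested, and the beta cell genes Ins1 and Ins2 were at 0 in all 6 libraries. The hormone gene Gcg was listed at 181 TPM in emSI library 3 and at 0 in the other 5 libraries. Pyy, another hormone gene, read 0, 27.1 and 0 TPM in emColon and 479, 0 and 72.8 TPM in emSI and overlapped. Sct, secretin, was detected in all 6 libraries, with 132, 209.7 and 127 TPM in emColon and 69.4, 86.6 and 97.9 TPM in emSI (adjusted p = 0.321). Of 23 colonocyte genes 4 were tested and none was called, and 7, Slc26a3 and Aqp8 among them, were listed at 0 in all 6 libraries.

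Id3, a BMP target, was lower in emColon. Of 32 genes of the BMP pathway 20 were tested and 1 was called, lower in emColon (0.237% over all tested identifiers), with a median difference of -0.41. Id3 (chr4:136143497-136145755), a direct BMP target and inhibitor of basic helix-loop-helix factors, was listed at 0 in all 3 emColon libraries and read 281, 144 and 112 TPM in emSI (-7.38 ± 0.62 (SE), adjusted p = 0.00126). Id1 (chr2:152736251-152737410) read 29.1, 0 and 0 TPM in emColon and 204, 176 and 176 TPM in emSI (adjusted p = 0.0601). Another member of the family, Id2, read 1784, 1905 and 1887 TPM and 1401, 1750 and 1984 TPM, and the ranges overlapped. Id3 stayed called without each emColon library and was below the level filter without an emSI library. It was above 1 TPM in emSI only, so that the filter fixed its direction. The ligand Bmp2 read 5.35, 12.6 and 6.80 TPM in emColon and 4.36, 0.377 and 1.15 TPM in emSI without overlap (adjusted p = 0.474), and the feedback inhibitors Smad6 (4.17, 1.24 and 0.507 TPM and 4.09, 7.06 and 4.21 TPM) and Smad7 (3.42, 0.191 and 3.75 TPM and 9.43, 3.58 and 3.72 TPM) overlapped. Bmp4, a mesenchymal ligand at this stage, read 6.29, 6.11 and 18.7 TPM in emColon and 92.8, 22.8 and 0 TPM in emSI, highest in the library with the most mesenchyme transcripts.

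In the WNT pathway 23 of 43 genes were tested and 1 was called, lower in emColon (0.237% over all tested identifiers), with a median difference of -0.53. Sfrp5 (chr19:42197971-42202252), a secreted WNT antagonist, was at 0 in all 3 emColon libraries and read 88.3, 179.9 and 189.7 TPM in emSI (-7.18 ± 0.62 (SE), adjusted p = 0.00126). Porcn, which acylates WNT ligands, was at 0 in emColon and read 16.3, 5.49 and 9.67 TPM in emSI (adjusted p = 0.0860). Sfrp5 and Porcn were above 1 TPM in emSI only, so that the filter fixed their direction. The WNT target Lgr5 read 8.24, 0 and 0 TPM and 6.21, 0.0771 and 2.37 TPM and overlapped. Sfrp1, the paralog of Sfrp5, read 5.36, 0.444 and 0.0391 TPM in emColon and 136, 26.8 and 3.02 TPM in emSI, overlapped, and its emSI values lie in the order of the mesenchyme sums. The part of those sums in the values was not tested.

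Of 37 FGF and ephrin genes 25 were tested, none was called and the median difference was 0.49. For 5 of the 25 each emColon value lay above each emSI value (5.71% over all tested identifiers), and for 2 each lay below (10.2%). Dusp6, the ERK phosphatase, read 136, 193 and 194 TPM in emColon and 60.1, 34.3 and 10.8 TPM in emSI (adjusted p = 0.0817). Etv4, an ETS factor, read 26.7, 16.9 and 70.8 TPM and 1.47, 3.58 and 0.419 TPM (adjusted p = 0.0916). Etv5 (32.8, 49.2 and 27.1 TPM and 1.06, 21.1 and 8.02 TPM), Spry1 (57.9, 48.1 and 45.7 TPM and 28.9, 19.9 and 20.1 TPM) and Spry2 (48.1, 71.5 and 94.6 TPM and 39.8, 37.4 and 15.8 TPM) were separated in the same direction (adjusted p = 0.364, 0.338 and 0.369). The 2 that lay below were the ephrin Efnb2, at most 5.80 TPM in emColon and up to 25.0 TPM in emSI, and the ephrin receptor Epha4, at most 3.04 TPM in emColon and up to 9.21 TPM in emSI (adjusted p = 0.281 and 0.372). These 7 genes are named because their groups did not overlap. The receptor Fgfr2 overlapped (57.3, 97.8 and 48.5 TPM and 68.1, 36.5 and 38.7 TPM).

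The other pathways held no called gene. In the retinoic acid pathway 11 of 19 genes were tested with a median difference of -0.63. Rdh10, which makes retinal, read 0.676, 0 and 0 TPM in emColon and 57.2, 8.06 and 4.36 TPM in emSI (adjusted p = 0.192). Aldh1a2, which makes retinoic acid and belongs to mesenchyme, read 0 in emColon and 57.1, 9.99 and 2.36 TPM in emSI. Both were above 1 TPM in emSI only, so that the filter fixed their direction, as it did for the Notch ligand Dll1. Within emSI both lay in the order of the mesenchyme sums. In emColon library 3 both were at 0, with a mesenchyme sum of 270.4 TPM against 246 and 109 TPM in emSI libraries 2 and 3. These sums rest on unlike numbers of markers, since 4 of the 15 were above 1 TPM in emColon library 3 and 12 and 2 in emSI libraries 2 and 3. The part of mesenchyme transcripts in these values was not tested. Rbp4, the retinol carrier, was higher in emColon, with 1126, 2394 and 2838 TPM against 944, 946 and 984 TPM in emSI (adjusted p = 0.195). In the Notch pathway 12 of 20 were tested (median -0.79), with Hes1 at 214, 154 and 153 TPM in emColon and 294, 311 and 269 TPM in emSI (adjusted p = 0.215) and the ligand Dll1 at 0 in emColon and 3.24, 6.76 and 1.34 TPM in emSI. In the hedgehog pathway 10 of 17 were tested (median -0.15), and the epithelial ligands overlapped, Shh at 89.0, 34.6 and 92.2 TPM and 61.0, 58.2 and 110.1 TPM and Ihh at 35.3, 106 and 23.6 TPM and 37.5, 47.0 and 30.8 TPM.

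Tight junction and cell-state genes held no called gene. Of 21 claudins 11 were tested and none was called (median 0.08). Cldn8, a sealing claudin of distal epithelia, read 83.9, 64.3 and 98.7 TPM in emColon and 13.4, 19.0 and 22.2 TPM in emSI, a ratio of 4.52 (adjusted p = 0.0559). Cldn11 was at 0 in emColon and 11.8, 19.1 and 8.33 TPM in emSI (adjusted p = 0.0601). It was above 1 TPM in emSI only, so that the filter fixed its direction. The 25 proliferation genes were all tested with none called and a median of -0.38, with 7 of the 25 lower in emColon without overlap (10.2% over all tested), Top2a for example at 85.3, 58.3 and 156 TPM in emColon and 180.3, 176 and 159.6 TPM in emSI (adjusted p = 0.385). The 24 genes of cholesterol synthesis and uptake (median -0.51) and 14 tested of 15 immediate early genes (median -0.66), which respond to dissociation, held no call either. In the goblet and Paneth list 6 of 15 were tested with a median of -0.97 and no call, Spdef reading 0, 0 and 1.40 TPM in emColon and 2.13, 17.6 and 21.0 TPM in emSI.

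Markers of other neighbouring tissues were low or mixed. Of 12 stomach markers 3 were tested and none called, with Gkn3 at 0 in emColon and 11.4, 101 and 12.4 TPM in emSI (adjusted p = 0.0650) and Sox2 and Barx1 at 0 in all 6 libraries. Of 14 urogenital and cloacal markers 3 were tested and none called, with Gata3 at 4.96, 5.33 and 31.2 TPM in emColon and 0, 0.252 and 0.305 TPM in emSI (adjusted p = 0.189) and Upk2 and Pax2 at 0 in all 6. Gkn3 was above 1 TPM in emSI only and Gata3 in emColon only, so that the filter fixed their direction. Neural crest and neuron markers (1 of 11 tested), mesothelium (3 of 6), germ cell (2 of 8) and extraembryonic origin genes (1 of 7) held no called gene, and Sox10 and Ret were at 0 in all 6 libraries. Of the 15 mesenchyme genes 5 were tested and none called.

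The Trp53 KO cells of extraembryonic origin from the same organs share no library with the comparison, although it is not stated whether they come from the same embryos. Of the 54 genes 46 were tested there, 40 differed in the same direction (87.0%, against 53.6% of all 11152 identifiers tested in both) and 15 were called in the same direction (32.6%, against 0.610%), while none was called in the opposite one. The 15 included Ly6a, Foxd2os, Ppp2r2b, Spink1 and Afp on the colon side and Sfrp5, Cpa1, Fabp2, Lgals2, Plac8, Tm4sf4, Tm4sf5, Tmem215 and Oat on the small intestine side. In all, 78 of 12053 identifiers (0.647%) were called between exColon and exSI, 26 higher in exColon (0.216%) and 52 lower (0.431%). Origin, Trp53 genotype, strain and, since the mCherry+ cells can be of either sex, sex change together between the embryonic and the extraembryonic cells and cannot be told apart.

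Several of these had values of similar size in both origins. Sfrp5 was at 0 in all 3 exColon libraries, as in emColon, and read 168, 438 and 372 TPM in exSI (adjusted p = 6.64e-05). Cpa1 was also at 0 in exColon and read 198, 126 and 40.5 TPM in exSI (adjusted p = 0.00391). By contrast, Ctrb1, Chgb and Neurod1 were at 0 in all 6 Trp53 KO libraries. Fabp1, not called in the embryonic cells, was called in the Trp53 KO cells (20.9, 21.7 and 24.4 TPM in exColon and 385, 1033 and 289 TPM in exSI, adjusted p = 0.00108).

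Other genes had organ differences of unlike size. Id3 read 226, 274 and 8.89 TPM in exColon and 192, 159.9 and 78.4 TPM in exSI, so the listed 0 of emColon was not seen in exColon. Hoxb13 read 0, 12.9 and 0 TPM in exColon and 9.51, 0 and 8.31 TPM in exSI. Apoe read 328, 743 and 649 TPM and 451, 514 and 546 TPM. When the difference of the organ differences was tested directly, 2 of 13560 identifiers (0.0147%) passed an adjusted p of 0.05, and Id3 (adjusted p = 0.157) and Hoxb13 (adjusted p = 0.353) did not. The 2 were Serpinb1a, with 67.1, 173 and 66.2 TPM in exColon and 121, 239 and 149.7 TPM in exSI (interaction 3.68, adjusted p = 0.0460), and Tnni1, with 0, 2.63 and 0 TPM in exColon and 8.86, 25.5 and 21.0 TPM in exSI (interaction 6.62, adjusted p = 0.0460). Both had a higher mean in emColon than in emSI and a lower mean in exColon than in exSI, and the exColon and exSI values overlapped for Serpinb1a. Neither was among the 0 or 1 identifiers that passed when any 1 of the 12 libraries other than exColon library 2 was left out. Ctrb1, Clu, Apoe and the antisense gene model Gm11739 shared the next adjusted p of 0.157.

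The embryonic hindgut and midgut of E9.5 differed in 1858 of 13491 identifiers (13.8%), 738 higher (5.47%) and 1120 lower (8.30%) in emHindgut. Of the 26 colon-high genes 23 were tested at E9.5, 5 were called higher in emHindgut (Hoxa10, Hoxb9, Hoxa11os, Ly6a and Tnni1) and 12 were called lower, among them Afp, Spink1, Apoe, Trf, Clu, S100a10, Bex1 and Ppp2r2b. Of the 28 small-intestine-high genes 19 were tested, 8 were called lower in emHindgut (among them Gata4, Nepn, Lgals2, Tm4sf4 and Cltrn) and 6 higher (among them Id3 and Pmaip1). Over all identifiers tested in both, 578 were called at E9.5 in the direction of the E13.5 difference and 760 in the opposite one. Hoxa10, Hoxb9 and Gata4 thus had the same direction at both stages, while Afp, Spink1, Apoe and Trf had the opposite one.

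The test of the difference between stages, which uses the emColon and emSI libraries again, passed 1446 of 15107 identifiers (9.57%), and 4 of the 5 with the smallest adjusted p are described. Id3 read 906, 1350, 933 and 812 TPM in emHindgut and 301, 334, 182 and 121 TPM in emMidgut, higher in the caudal part, where the colon at E13.5 was at 0 (stage interaction -9.55, adjusted p = 1.53e-08). Afp read 4.83, 2.13, 18.9 and 6.05 TPM in emHindgut and 662, 734, 952 and 978 TPM in emMidgut (interaction 9.42, adjusted p = 4.87e-07). S100a10 read 231, 268, 329.5 and 224 TPM in emHindgut and 826, 846, 722 and 874 TPM in emMidgut against 1601, 1396 and 1498 TPM in emColon and 604, 552 and 498 TPM in emSI (interaction 3.09, adjusted p = 1.23e-07). Bex1, whose reads can be split with its near-identical neighbour Bex2, read 1353, 1015, 1445 and 1208 TPM and 3732, 4054, 3768 and 4041 TPM at E9.5 and 2994, 3175 and 3040 TPM and 884, 1017 and 1584 TPM at E13.5 (interaction 3.09, adjusted p = 4.87e-07). The hindgut and midgut of E9.5 are dissected parts of the tube from pooled embryos, not the organs of E13.5, and stage, sorting gate, pooling and the genotype of the host morula cannot be told apart.

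**Figure D5:**
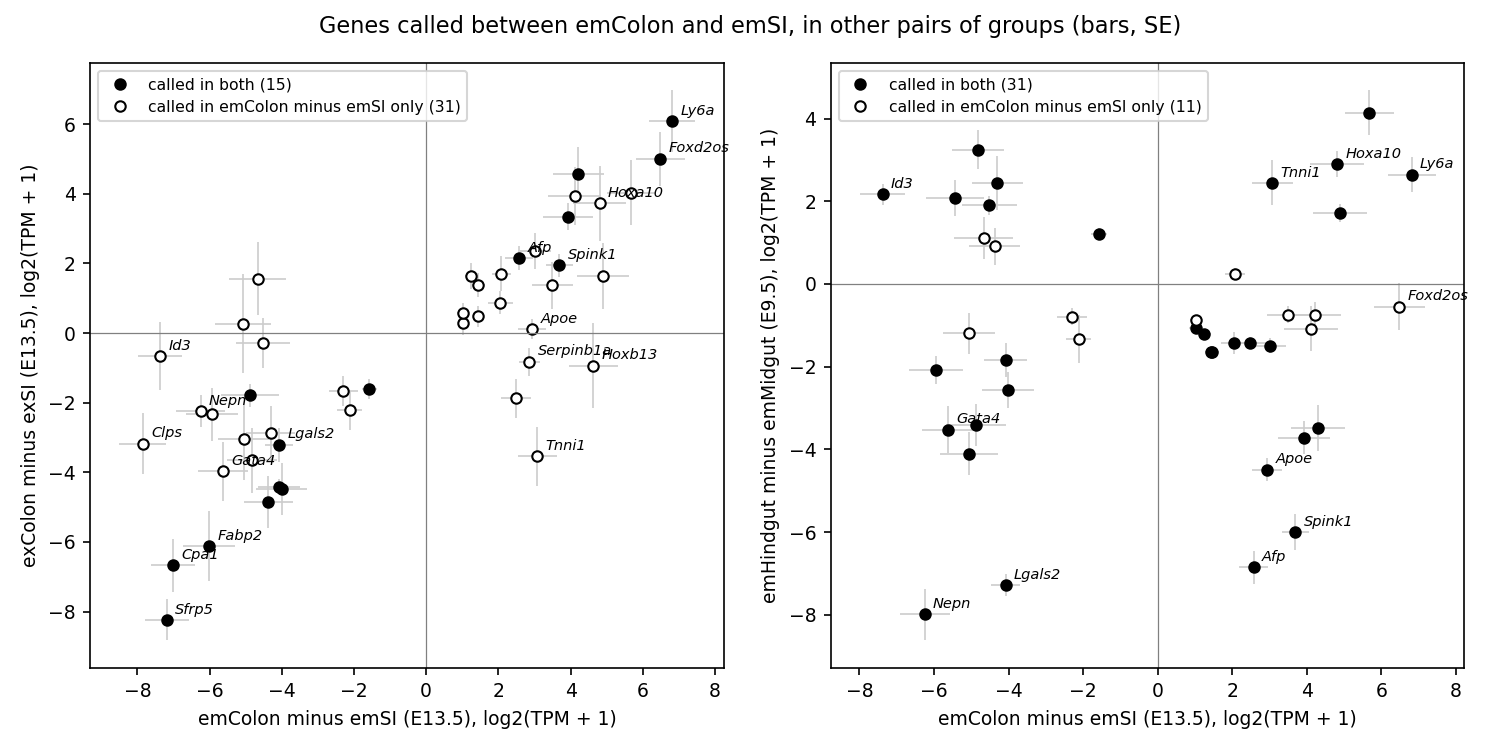
Difference between emColon and emSI (x axis) against the difference between exColon and exSI (left, 46 genes) and between emHindgut and emMidgut (right, 42 genes), on the log2(TPM + 1) scale with SE bars, for the genes called between emColon and emSI, filled where the other pair was called in either direction. On the left 40 of 46 genes share their sign, and on the right 17 of 42 do.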

How the data were processed

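Sequencing libraries were compared at gene level. Upstream, the authors used cutadapt 4.1 for trimming, STAR 2.7.9a for alignment to mm10 with EGFP and mCherry added, and StringTie 2.0.6 for quantification, and the deposited files hold TPM, FPKM and mean coverage per transcript or gene, 1 library per file, with no read counts. TPM as deposited by the authors was summed per gene identifier (32287) and transformed to log2(TPM + 1), with a pseudocount of 1. FPKM as deposited served an alternative. The deposited coverage of a transgene divided by its FPKM gave the aligned gigabases. No sampling interval can be given without read counts, and depth was taken from these deposited values only.

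Gene identifiers above 1 TPM in at least 3 of the 6 libraries were tested with limma 3.58.1 in R 4.3.3 (lmFit, eBayes with trend, two-sided, Benjamini-Hochberg adjustment over all identifiers tested). Calls needed both an adjusted p below 0.05 and a log2 difference beyond 1 in size. The E9.5 pair was filtered at 4 libraries, and the 2 interaction tests (origin by organ, stage by organ) needed an adjusted p under 0.05 only. Every adjusted p in the text is from these limma fits. An exact permutation test of 3 against 3 libraries cannot go below p = 0.1. The scripts were tested on simulated data.

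The named genes are the 15 called genes of largest difference in each direction with a proper name, members of the gene lists, label checks and the 5 genes of smallest adjusted p in each interaction, of which some are not reported here. The members and lists were chosen with earlier results of these data known. The replicates are separate samples by their labels, and p-values measure the spread between them. Whether same-numbered libraries share an embryo is not stated. Alternatives were another pseudocount, filter, unit, scaling, gene type, variance trend and replicate block, single libraries left out and a joint fit. Libraries other than those of emColon, emSI, exColon, exSI, emHindgut and emMidgut were not used here.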

Additional observations from a re-analysis of the deposited data

Results flagged for a closer look

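The organ difference differed between cells of embryonic and extraembryonic origin for Serpinb1a, by 3.68 on the log2(TPM + 1) scale, and for Tnni1, by 6.62, in the interaction test of limma (adjusted p = 0.046 for both). Neither passed with a pseudocount of 0.1 or when any 1 library other than exColon library 2 was left out. Origin, Trp53 genotype, strain and, where the mCherry+ cells were female, sex change together here and cannot be told apart.

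Between stages, the organ difference at E13.5 minus the hindgut minus midgut difference at E9.5 was -9.55 for Id3, 9.42 for Afp, 3.09 for S100a10 and 3.09 for Bex1 on the same scale, 4 of the 5 identifiers of smallest adjusted p.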

How the results depend on the processing

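The 54 calls between emColon and emSI became 3 with no filter on low values (Id3, Sfrp5 and Cpa1, with 19579 identifiers tested), 104 with all 12 E13.5 libraries in a single fit, 9 to 33 with 1 library left out and 10 without emSI libraries 1 and 2 together, an alternative chosen after seeing the data. The 78 calls between exColon and exSI became 10 with a pseudocount of 0.1, 2 with no filter and 6 to 64 with 1 library left out. The 2 calls of the origin by organ interaction became 0 with a pseudocount of 0.1 (1081 identifiers had an unadjusted p under 0.05), 13 with no filter, 10 without the variance trend and 0 to 2 with 1 library left out. With no filter, and also without the trend, 1 of the 2 was still among the calls. The other alternatives kept these counts, and all those run for emHindgut against emMidgut and for the stage by organ interaction, within 1.5 times; without the trend the 54 became 78 (21 higher and 57 lower, 35 of the 54 shared). Fewer identifiers are testable when a library is left out, and with no filter more low identifiers are adjusted over; other causes were not tested. Quantile normalization moved the median difference of emColon against emSI by 0.12. Over 5457 pairs of a named gene and an alternative no difference of a called gene changed sign, and 155 of the 569 pairs of the 36 named called genes lost the call.

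With the replicate number as a block, the count for emColon against emSI was 49 as a fixed term (39 of the 54 shared) and 54 as a random term, and for exColon against exSI 103 and 97. The deviations of same-numbered emColon and emSI libraries correlated at -0.026 to 0.001, and those of differently numbered ones at -0.029 to 0.038, so the numbers were not used as pairs. The ranges also overlapped for emColon with exColon (0.009 to 0.029 and -0.023 to 0.011). They did not overlap for emSI with exSI (0.046 to 0.069 and -0.047 to -0.012) or exColon with exSI (0.012 to 0.043 and -0.044 to 0.008). The main fits of these groups were unpaired as well. The origin by organ interaction gave 2 as a fixed term, of which 1 was among the 2 of the main fit, and the same 2 as a random term. Counts for emHindgut against emMidgut were 1846 and 1873, and for the stage by organ interaction 1175 and 1469.

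The libraries hold no read counts, and colon libraries were shallower than those of the small intestine. Whether a gene listed at 0 in emColon was absent or below detection cannot be told apart.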
